A study of Mus musculus with 4 samples.

Results

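Narrow BRG1/BRM islands of depolarized cortical neurons were the KCl islands of 600 bp or less, chosen by their width alone. There were 2318 of them among the 20966 islands of the KCl list (11.1% [10.6 to 11.5]) and among 21677 islands in both lists of the series. Brackets here and below hold 95% exact (Clopper-Pearson) intervals, which cover counting error only. The series mapped the ATPases of the BAF complex by ChIP-seq in wild-type primary cortical neurons, taken from E16.5 mouse embryos and harvested after 6 days in vitro. The KCl cultures were depolarized with 50 mM KCl for 1 h, after 1 µM TTX, a sodium channel blocker, and 100 µM APV, an NMDA receptor antagonist, on day 5. The basal cultures had the basal level of KCl, and the labels do not say whether they also received TTX and APV. Each condition had 1 immunoprecipitated (IP) library, made with the J1 antibody against BRG1 and BRM, and 1 input library, so nothing here was tested across replicates and p-values are left out. These are bulk chromatin samples, in which binding in fewer cells and weaker binding per cell cannot be told apart.

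BRG1 and BRM are the alternative motor subunits of BAF complexes, which slide and evict nucleosomes at promoters and at distal enhancers. In neurons, BAF complexes take up subunits that dividing progenitors lack, and they take part in dendrite growth and in transcription that follows neuronal activity. Enhancers are typically short stretches of open chromatin that can lie within introns or far from any gene. An island is a run of windows of 200 bp with more IP reads than background, and windows up to 600 bp apart are joined. Like an island of any width, a narrow one therefore has no further enriched window within the joining distance.

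Very few narrow islands reached an annotated gene start. Of 21262 promoter windows of protein-coding genes, each running from 250 bases before a start to 50 after it, 13 were overlapped by a narrow island (0.0611%) and 4731 by a wider one (22.3%), and 22.3% of all windows by a KCl island of any width. The windows of the first 5 of these 13 islands, ranked by the lower limit of the fold interval, are printed because they show how unlike each other the promoters under narrow islands are. CpG dinucleotides are in capitals, sequences run 5′ to 3′ on the gene's strand, and all are RefSeq sequence of GRCm38.p6, the build of the islands. The windows are chr4:112774812-112775111 (minus strand) for Skint10, chr15:89196425-89196724 (minus strand) for Dennd6b, chr2:69135550-69135849 (plus strand) for Nostrin, chr11:55097735-55098034 (plus strand) for Gm2a, and chr5:33782668-33782967 (minus strand) for Letm1.
Skint10: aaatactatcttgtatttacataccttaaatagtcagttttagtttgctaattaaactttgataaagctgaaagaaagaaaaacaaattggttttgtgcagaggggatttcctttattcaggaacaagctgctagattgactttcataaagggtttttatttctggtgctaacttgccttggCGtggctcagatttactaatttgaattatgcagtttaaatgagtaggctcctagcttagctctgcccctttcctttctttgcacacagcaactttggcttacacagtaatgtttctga
Dennd6b: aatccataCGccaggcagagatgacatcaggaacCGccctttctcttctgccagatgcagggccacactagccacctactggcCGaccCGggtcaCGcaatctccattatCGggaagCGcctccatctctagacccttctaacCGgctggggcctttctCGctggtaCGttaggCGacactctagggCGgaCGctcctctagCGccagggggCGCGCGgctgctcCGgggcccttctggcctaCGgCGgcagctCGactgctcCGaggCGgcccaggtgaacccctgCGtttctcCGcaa
Nostrin: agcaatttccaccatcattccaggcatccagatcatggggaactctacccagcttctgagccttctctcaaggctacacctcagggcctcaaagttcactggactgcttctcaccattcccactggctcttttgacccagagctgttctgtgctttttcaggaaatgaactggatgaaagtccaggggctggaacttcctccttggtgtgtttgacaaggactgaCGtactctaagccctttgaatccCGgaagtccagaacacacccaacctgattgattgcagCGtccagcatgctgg
Gm2a: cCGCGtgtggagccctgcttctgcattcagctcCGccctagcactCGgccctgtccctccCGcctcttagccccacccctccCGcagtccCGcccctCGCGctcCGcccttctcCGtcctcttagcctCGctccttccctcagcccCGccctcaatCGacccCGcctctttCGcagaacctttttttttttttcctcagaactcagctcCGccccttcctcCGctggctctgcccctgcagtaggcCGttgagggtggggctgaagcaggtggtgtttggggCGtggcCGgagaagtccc
Letm1: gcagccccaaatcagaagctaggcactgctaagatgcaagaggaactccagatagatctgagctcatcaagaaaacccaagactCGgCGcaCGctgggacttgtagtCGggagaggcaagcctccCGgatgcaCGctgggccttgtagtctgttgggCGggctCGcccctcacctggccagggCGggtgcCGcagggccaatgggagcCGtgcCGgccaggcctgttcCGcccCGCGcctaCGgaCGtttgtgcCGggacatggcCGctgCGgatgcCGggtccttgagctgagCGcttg

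The Skint10 window, from a family of immunoglobulin-like proteins of skin and thymus, held 1 CpG and was 35.3% G and C. The window of Dennd6b, which encodes a DENN domain protein, held 25 CpGs and was 64.0% G and C. Narrow islands thus touched both CpG-poor and CpG-rich promoters. Skint10 and Dennd6b windows lay inside their islands with all 300 bases. For Nostrin, which encodes an adaptor of nitric oxide synthase trafficking, the overlap was 49 bases and the window held 3 CpGs. Gm2a, the gene of the GM2 ganglioside activator, had 21 CpGs, and Letm1, which encodes a mitochondrial inner membrane protein, had 22. Over the 13 windows the median was 21 CpGs (range 1 to 31) and 61.3% G and C, beside medians of 25 CpGs and 64.7% for windows under wider islands and 8 CpGs and 54.0% for windows under no KCl island. Of the other 8, those of Ralgapb, Tcf3 and Rab8b held the most CpGs, 31, 25 and 24. Those of Mpp4 and Krtap14 held the fewest, 5 and 6. The fold interval of the Ralgapb island included 1 (2.24-fold [0.943 to 6.14]).

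Motifs of activity-regulated factors were searched on both strands in the same windows. The AP-1 motif TGANTCA was in 0 of the 13 windows, against 6.99% of all coding windows, and the full cyclic AMP response element TGACGTCA in 0 of 13, against 2.23%. The E-box CANNTG, the site of bHLH factors, was in 9 of 13 (69.2%), against 69.0% of all windows. Its form CACGTG, every match of which is also a match of CANNTG, was in 0 of 13, against 7.84%. A window without a match says only that these letters are not in it, and with 13 windows these counts are near the share over all windows.

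Narrow islands carried few reads in little length, with high IP density. They came in 3 widths, 77 of 200 bp, 746 of 400 bp and 1495 of 600 bp. Together they covered 1.21 Mb, 2.92% of the length of all KCl islands, and held 5.77% of the IP reads (82746) and 3.10% of the control reads (12432). A narrow island held a median of 33 IP reads (interquartile range 30 to 39) and 5 control reads (3 to 7), whereas a wider one held 62 IP reads (49 to 83) and 17 control reads (11 to 25). Per kb, narrow islands had 65.0 IP reads and wider islands 33.5. Control density was much closer, with medians of 10 and 9.29 reads per kb in narrow and wider islands. The IP density and the fold are tied to the width, because islands were called on reads per window, so they are given as a description.

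The fold was IP over control reads divided by the 1 constant of the KCl list (1.59), with 0 to 2 control reads counted as 3. Its median was 4.40 in narrow islands (interquartile range 3.22 to 5.86) and 2.28 in wider islands (1.79 to 3.09). Just inside the width limit, islands of 600 bp had medians of 35 IP reads, 6 control reads and a fold of 4.02. Just outside it, islands of 800 bp had 41 IP reads, 8 control reads and a fold of 3.56, so the limit cuts through a gradual series. Intervals wholly above 1 were found at 2196 of 2318 narrow islands (94.7% [93.7 to 95.6]) and at 85.3% of wider ones, with 86.4% over the whole list. An FDR of at most 1e-05 was met by 91.7% of narrow and 75.1% of wider islands (76.9% of all). Both lists hold only islands that had already passed an FDR threshold on their IP and control reads. Intervals above 1, here and below, rest on those same reads, so they and the FDR shares are given as a description. How much of the difference between narrow and wider islands comes from this selection was not tested. Of the 43 KCl islands with 0 control reads (0.205% of all), 40 were narrow, and 14 of these were among the 77 islands of 200 bp.

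**Figure D1:**
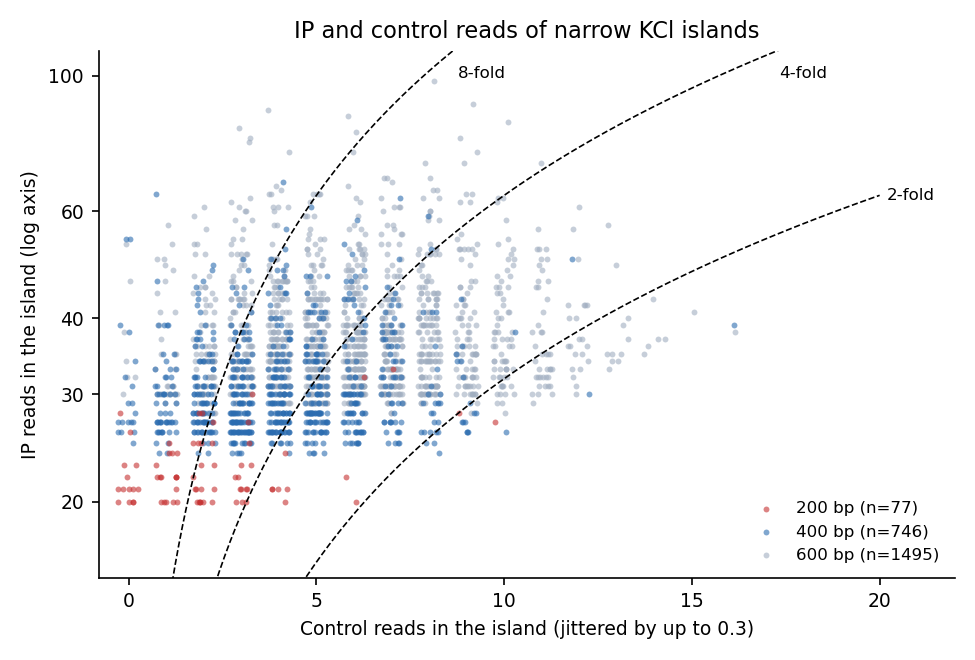
IP reads (vertical, log axis) against control reads (horizontal) for narrow KCl islands, 1 point per island, coloured by width, with dashed lines at 2-fold, 4-fold and 8-fold. The interquartile range is 3 to 7 for control reads and 30 to 39 for IP reads, islands of 200 bp have the lowest median of IP reads (22), and 3 islands with 140 to 224 IP reads fall outside the axes.

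Ranked by the lower limit of the fold interval, the first 8 narrow islands had Nanog, Atp6v0d1, Dhrs7, Spin4, Dpyd, Lsamp, Rnf217 and Cdh18 as nearest genes. Those named by Nanog, Dhrs7 and Spin4 lay outside genes, 9.69, 45.2 and 25.5 kb from an end of the named gene. In 6 of the 8 islands there were 0 control reads, with 38 to 54 IP reads. The exceptions, with 1 control read each, were at Rnf217 and inside Dpyd, the gene of an enzyme of pyrimidine breakdown. The Dpyd island (chromosome 3, 118940201 to 118940600) had 64 IP reads, 40.2-fold [6.96 to 1612]. The island nearest to the cadherin gene Cdh18, 472 kb away (chromosome 15, 22076401 to 22076800), had 38 IP reads and 0 control reads, 7.96-fold with 3 control reads as the floor and 6.16 as the lower limit of the interval. Of these 8, those at Atp6v0d1 and Lsamp overlapped a basal island, and the one at Rnf217 lay at a gene end.

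Narrow islands lay away from the ends of protein-coding genes. Within 2 kb of a gene end there were 65 of 2318 narrow islands (2.80% [2.17 to 3.56]) and 4790 of 18648 wider ones (25.7% [25.1 to 26.3]), with 23.2% over all KCl islands. Inside genes, more than 2 kb from both ends, lay 955 narrow islands (41.2% [39.2 to 43.2]) and 34.9% of wider islands [34.2 to 35.5] (35.6% of all). Outside genes and 2 to 50 kb from an end lay 389 narrow islands (16.8% [15.3 to 18.4]) and 12.6% of wider ones (13.1% of all). Outside genes and more than 50 kb from any end lay 909 narrow islands (39.2% [37.2 to 41.2]) and 26.8% of wider ones [26.2 to 27.5] (28.2% of all). The remote and intragenic classes thus made up most narrow islands.

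The share at gene ends grew with width throughout. It was 0 of 77 islands of 200 bp, a count that allows up to 4.68% by the exact interval and 3.90% as 3 counts of the total, then 2.14% [1.23 to 3.46] at 400 bp and 3.28% [2.43 to 4.31] at 600 bp. Past the limit it was 5.13% [4.08 to 6.36] at 800 bp, 7.51% at 1000 bp, 18.5% from 1200 to 2000 bp and 41.2% above 2000 bp. Narrow islands had another KCl island within 5 kb in 11.2% of cases [9.92 to 12.5] and wider islands in 14.3% [13.8 to 14.8] (13.9% of all). The median distance to the nearest other KCl island was 34.5 kb for narrow and 29.2 kb for wider islands.

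**Figure D2:**
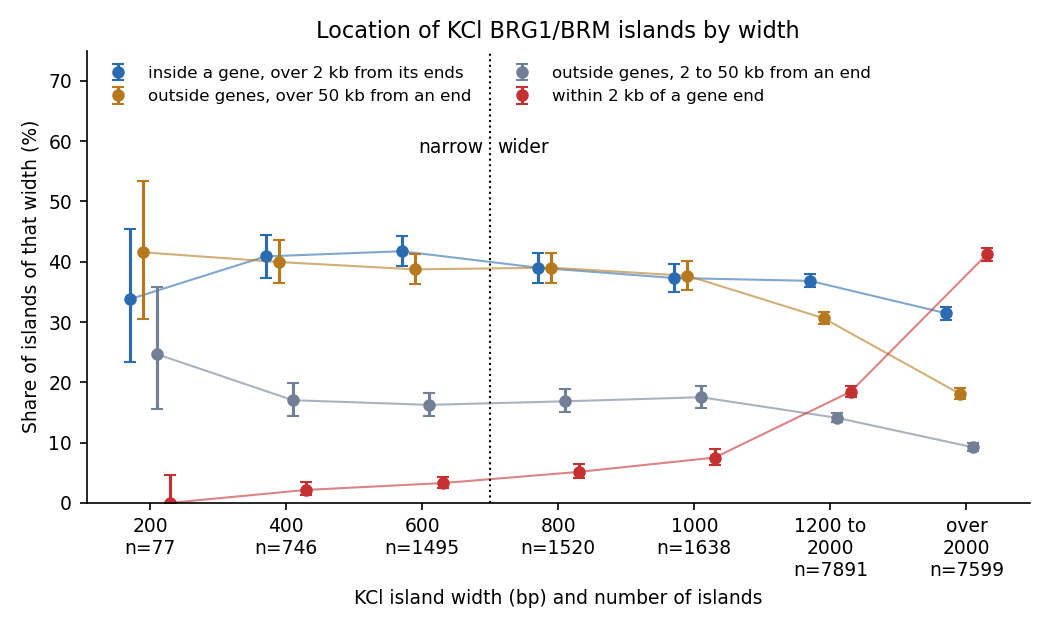
Share of KCl islands (vertical, %) in each of 4 locations by island width (horizontal, bp, with the number of islands), with 95% exact intervals as bars and the 600 bp limit dotted. Shares inside genes and in remote intergenic DNA are near 40% for islands of 400 and 600 bp, and the share at gene ends reaches 41.2% above 2000 bp.

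The low share at gene ends was also seen at equal IP reads. The ranges of reads were chosen after the data were seen. Among islands with 40 to 59 IP reads, 13 of 482 narrow islands (2.70% [1.44 to 4.57]) and 1332 of 6984 wider islands (19.1% [18.2 to 20]) sat no more than 2 kb from one. With 30 to 39 IP reads the shares were 3.45% [2.5 to 4.64] of 1216 narrow and 8.67% [7.26 to 10.3] of 1418 wider islands. With 60 to 99 IP reads they were 1.54% [0.0389 to 8.28] of 65 narrow and 30.2% [29.2 to 31.2] of 7522 wider islands. In these 3 ranges the intervals of narrow and wider islands did not overlap. At equal IP reads the sets still differed in control reads, with medians of 6 for narrow and 13 for wider islands between 40 and 59 IP reads. Measured from the island centre, over all IP reads, 2.55% of narrow and 23.1% of wider islands lay within 2 kb of a gene end. The part of control reads and of length in the difference at equal IP reads was not tested.

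**Figure D3:**
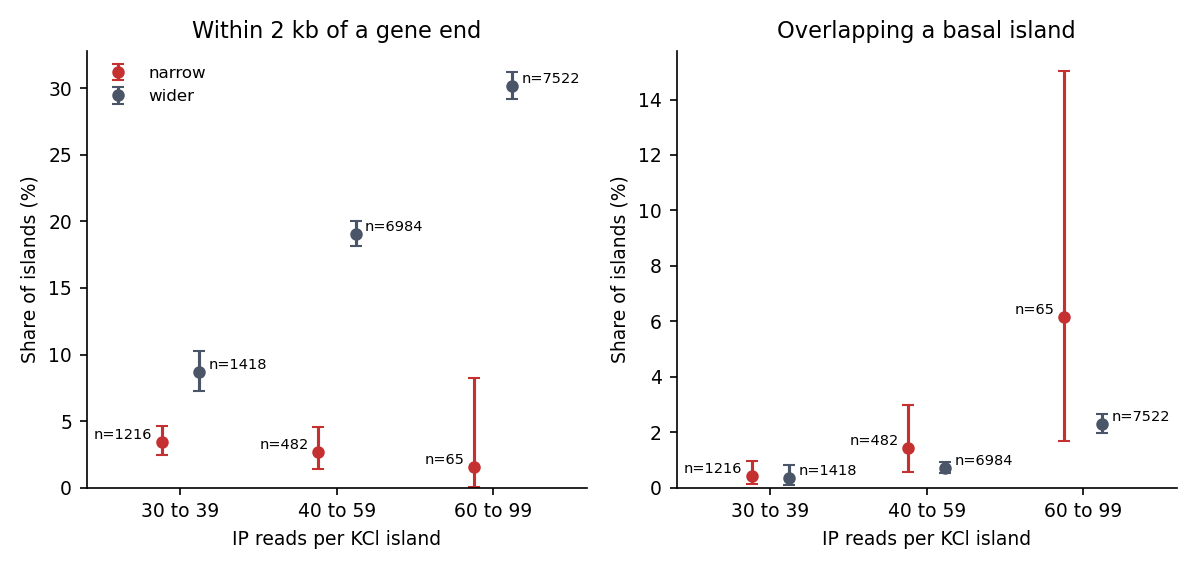
Share of narrow and wider KCl islands (vertical, %) within 2 kb of a gene end (left panel) and overlapping a basal island (right panel), for 3 ranges of IP reads per island (horizontal), with 95% exact intervals and the number of islands. Narrow islands are lower at gene ends in every range, and at 40 to 59 reads 1.45% of narrow and 0.716% of wider islands overlap a basal island, with intervals that overlap.

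At the gene ends they did reach, narrow islands lay about as often by the 3′ end as by the 5′ end. The strand of the nearest gene was given by the promoter table for 52 of the 65 narrow and 3777 of the 4790 wider islands. The nearest end was the 5′ end for 27 of 52 narrow islands (51.9% [37.6 to 66.0]) and for 3433 of 3777 wider islands (90.9% [89.9 to 91.8]). Within 2 kb of any annotated coding start there were 29 narrow islands (1.25% [0.839 to 1.79]) and 21% of wider ones (18.8% of all). At the 65 gene ends, 59 narrow islands had an interval wholly above 1, beside 75.9% of wider islands at gene ends. The median fold of narrow islands was 3.35 at gene ends, 4.33 inside genes, 4.19 outside genes within 50 kb of an end and 4.50 farther out.

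Of the 12 gene-end islands with the highest lower limits, 7 were nearest to a 3′ end. The first covered the 3′ end of Rnf217, which encodes a ubiquitin ligase (chromosome 10, 31501601 to 31502200). There, 57 IP reads stood against 1 control read, 35.8-fold with an interval of 6.17 to 1439. The second lay 75 bp from the 3′ end of Melk, a cell cycle kinase gene (chromosome 4, 44364001 to 44364600), where 64 IP reads met 5 control reads (8.04-fold [3.27 to 25.6]). Another lay inside Eed, 1547 bp from its 3′ end (chromosome 7, 89956201 to 89956600). Eed encodes a core subunit of the Polycomb repressive complex PRC2, and 28 IP reads stood against 1 control read there, 17.6-fold [2.91 to 719]. Another lay 647 bp from the 3′ end of Rel, the gene of an NF-κB subunit (chromosome 11, 23735601 to 23736200), where 56 IP reads met 7 control reads (5.02-fold [2.28 to 13.1]). The others nearest to a 3′ end were those of Sh3bgrl2 (6.91-fold [2.51 to 26.5]), Gm17660 (6.59-fold [2.39 to 25.3]) and Fam160a1 (6.12-fold [2.21 to 23.6]).

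At 5′ ends, the island at Skint10 held 43 IP and 3 control reads, 9.0-fold [2.88 to 45.4], and covered the start. At Pcp4, which encodes a small calmodulin-binding protein of neurons, the island lay 795 bp inside the gene from its start (chromosome 16, 96468401 to 96469000). Reads there numbered 46 in IP and 4 in control, 7.22-fold [2.64 to 27.6]. The islands nearest to the 5′ ends of Sohlh2, a germ cell bHLH factor gene (9.74-fold [2.48 to 84.0]), and Wdr26 (5.40-fold [2.14 to 17.5]) lay 1157 and 1080 bp away. The Wdr26 island lay inside another gene, Gm38664, and 10023 bp from the nearest coding start in the promoter table. The remaining island of the 12, 1636 bp from an end of the olfactory receptor gene Olfr971, had no strand in the table (7.75-fold [2.45 to 39.3]). The 3 gene-end islands with the lowest lower limits were at Slc4a3, an anion exchanger gene, with 26 IP and 10 control reads (1.63-fold [0.762 to 3.79]), Tmcc3 (1.53-fold [0.836 to 2.93]) and Fbxo16 (1.77-fold [0.866 to 3.90]). Their intervals included 1.

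**Figure D4:**
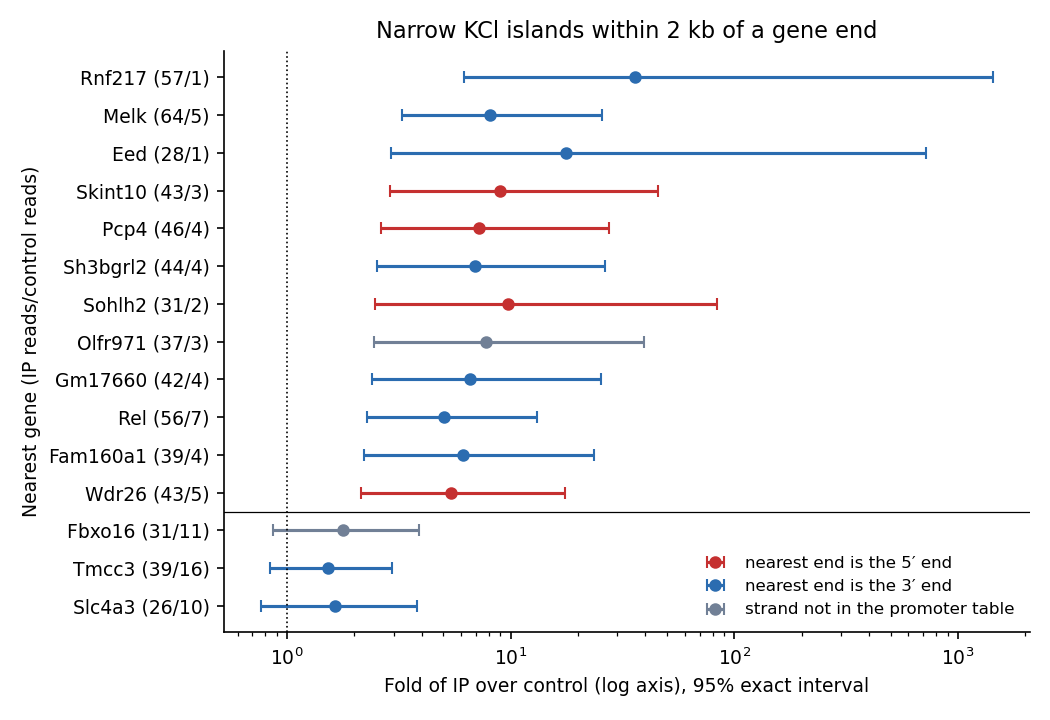
Fold of IP over control (horizontal, log axis) with its 95% exact interval for the 12 narrow islands at gene ends with the highest lower limits and, under the line, the 3 with the lowest, with IP and control reads beside each gene. Of the upper 12, 7 are nearest to a 3′ end, and the 3 lowest intervals include 1.

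Inside genes, narrow islands gathered in numbers in very long genes. Of the 21883 protein-coding genes, 657 had 1 narrow island in the body, 99 had 2, 24 had 3 and 13 had 4, and 5 genes had 5 to 7. Genes of 500 kb or more had one in 147 of 226 cases (65.0%), genes of 100 to 500 kb in 18.2% of cases and shorter genes in 1.29%. Per 10 Mb of gene, that is 14.5, 11.0 and 5.81 narrow islands. Among KCl islands more than 2 kb from any gene end, the narrow share was 14.2% [12.7 to 15.9] in the longest genes, 11.9% [10.9 to 13] in the middle class and 13.2% [11.6 to 14.9] in the shortest, with intervals that overlapped.

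The 5 genes with the most narrow islands were Lsamp, Auts2, Pde4d, Tenm2 and Ptprd. Of the 13 genes tied at 4, Csmd1, Nkain2 and Camta1 are described because their narrow islands held the most IP reads in sum. Lsamp, an adhesion gene of the IgLON family that spans 2197 kb of chromosome 16, held 7 narrow islands among 32 KCl islands. From the lowest to the highest coordinate they had 35, 33, 29, 33, 28, 20 and 39 IP reads, beside 2, 4, 3, 4, 3, 1 and 0 control reads. All 7 Lsamp intervals lay above 1, with lower limits from 1.81 to 6.33. Auts2, a neurodevelopmental gene of 1106 kb, held 6 among 21, with 37, 37, 43, 52, 33 and 51 IP reads beside 7, 7, 6, 6, 6 and 8 control reads. Pde4d, which encodes a cyclic AMP phosphodiesterase, held 6 among 23, with 22 to 48 IP reads and 1 to 9 control reads. Folds ranged from 3.32 to 5.44 over the Auts2 islands and from 2.16 to 13.8 over those of Pde4d.

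Tenm2, which encodes a teneurin, a synaptic adhesion protein, held 5 narrow islands among 19, and the tyrosine phosphatase receptor gene Ptprd held 5 among 37. At Ptprd, 4 of the 5 intervals lay above 1. Csmd1, Nkain2 and Camta1 had 4 each, among 24, 13 and 9 KCl islands. Camta1, which encodes a calmodulin-binding transcription activator, thus had narrow islands as 44.4% of its total, with 53, 28, 33 and 37 IP reads beside 4, 4, 6 and 10 control reads. Of the narrow islands in these 8 genes, 1 overlapped a basal island, in Lsamp.

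The 909 remote intergenic islands had 643 different nearest genes. The genes with the most of them, named after their counts were seen, were Ncam2, Lrrc4c and Cdh8 with 6 each, and Pcdh17, Slitrk1, Efna5, Adgrl3 and Triml1 with 5 each. Around Ncam2, the gene of a neural cell adhesion molecule, the 6 islands lay 455 to 1198 kb from the gene, among 16 remote KCl islands in all. They held 24 to 39 IP reads and 1 to 5 control reads. Around Lrrc4c, which encodes a netrin-G ligand of synapses, they lay 137 to 1624 kb away with 29 to 47 IP reads and 1 to 9 control reads. Around Cdh8, a cadherin gene, they lay 162 to 1547 kb away with 26 to 43 IP reads and 4 to 7 control reads. All 6 intervals lay above 1 at each of these 3 genes. Farther than 500 kb from any gene end and outside genes lay 206 narrow islands (8.89% [7.76 to 10.1]) and 5.74% of wider ones [5.41 to 6.09] (6.09% of all).

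Activity-regulated genes carried mostly wider islands. The rapid ones include the immediate early genes, which neurons induce within an hour of depolarization. With the gene body and 10 kb around it as the region, 0 of 38 rapid activity-regulated genes had a narrow island and 30 of 38 had a wider one. Over all 21883 protein-coding genes the shares were 4.56% for narrow and 37.7% for wider islands, and the 38 genes had a median length of 5.32 kb, so a narrow count of 0 is near the background. Of 30 delayed genes, 4 had a narrow island and 20 a wider one. These were Kcnj2, the Kir2.1 potassium channel gene, Dclk1, Sorcs3 and Tiparp. The Kcnj2 island, 9.56 kb outside the gene (chromosome 11, 111056001 to 111056600), had 84 IP reads against 10 control reads (5.28-fold [2.73 to 11.4]). The islands inside Dclk1, a kinase of the doublecortin family (5.18-fold [1.84 to 20.1]), and Sorcs3, a sorting receptor gene (3.98-fold [1.67 to 11.5]), lay far from their ends. The island 1883 bp from Tiparp (3.14-fold [1.29 to 9.23]) was the only one within 2 kb of a gene end for any of the 240 genes in the 10 lists, beside 0.329% of all coding genes. Of the 240, 38 had a narrow island within 10 kb of the body and 55 within 50 kb, where all coding genes gave 8.41%.

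The cortical neuron genes had a median length of 65.9 kb, beside 17.2 kb for all coding genes. Among all coding genes 4.56% had a narrow island and 37.7% a wider one. Of the cortical neuron genes, 3 of 30 had a narrow island and 28 of 30 a wider one. These 3 genes had 5 narrow islands, 2 each at Syt1 and Cux1 and 1 at Map2. The island with the highest lower limit in each lay inside the gene, in Syt1, the calcium sensor gene of synaptic vesicles (38 IP and 4 control reads, 5.97-fold [2.15 to 23.0]), Map2, a dendritic microtubule protein gene (3.89-fold [1.5 to 12.8]), and Cux1, an upper layer transcription factor gene (3.22-fold [1.49 to 7.95]). The list of long synaptic and adhesion genes, with a median length of 1079 kb, had narrow islands in 26 of 30 members and wider ones in 30 of 30. Its highest lower limits after that of Lsamp were in Csmd1 (58 IP and 3 control reads, 12.1-fold [3.95 to 60.6]), Cdh13, the T-cadherin gene (65 IP and 4 control reads, 10.2-fold [3.80 to 38.6]), and Nlgn1, the neuroligin 1 gene (45 IP and 2 control reads, 14.1-fold [3.69 to 120]). The count stands beside the 65.0% of all genes of 500 kb or more with a narrow island in the body alone.

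Among genes of the BAF complex itself, 2 of 27 had a narrow island and 18 of 27 a wider one. Over all coding genes the shares were 4.56% and 37.7%. The 2 were Dpf3, whose product is a histone-reading subunit (31 IP and 3 control reads, 6.49-fold [2.02 to 33.2]), and Arid1b, a DNA-binding subunit gene (28 IP and 4 control reads, 4.40-fold [1.54 to 17.3]). Among markers of other cells, set against the same shares, narrow islands were at 2 of 15 astrocyte genes (13.3%), with 1 at Slc1a2 (3.52-fold [1.34 to 11.7]) and 3 at Slc4a4 (3.89-fold [1.5 to 12.8] for the one with the highest lower limit), and at 1 of 15 oligodendrocyte lineage genes, Pdgfra (3.23-fold [1.42 to 8.60]). None was at 20 interneuron, 15 microglia or 20 liver and muscle genes. Wider islands were at 6 of 15, 6 of 15, 7 of 20, 4 of 15 and 2 of 20 of these lists in the same order. In no list did a member have a narrow island without a wider one. Among all coding genes, 267 of the 997 with a narrow island had no wider one. These counts were not matched for gene length. Of the 38 listed genes with a narrow island, 26 were long synaptic and adhesion genes, a list with a median length of 1079 kb.

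Overlap with basal islands was rare among KCl islands of any width. Of 2318 narrow KCl islands, 17 (0.733% [0.428 to 1.17]) overlapped a basal island, as did 433 of 18648 wider ones (2.32% [2.11 to 2.55]) and 2.15% of all. The basal list held 711 islands and the KCl list 20966, so these shares are limited by the size of the basal list. Seen from the basal side, 17 of the 711 overlapped a narrow KCl island and 433 a wider one, 1 of them both. With a window of 2 kb on the centre of every island in place of the island, the shares were 0.733% and 2.23%. The order was not kept at equal IP reads. With 40 to 59 IP reads, 7 of 482 narrow islands (1.45% [0.586 to 2.97]) and 50 of 6984 wider islands (0.716% [0.532 to 0.943]) overlapped one. With 60 to 99 IP reads the shares were 6.15% [1.70 to 15.0] for 4 of 65 narrow and 2.29% [1.96 to 2.65] for 172 of 7522 wider islands. With 30 to 39 IP reads they were 0.411% [0.134 to 0.957] for 5 of 1216 narrow and 0.353% [0.115 to 0.821] for 5 of 1418 wider islands. In each of these ranges narrow islands had the higher share, on few islands and with intervals that overlapped. The difference at equal reads was not tested.

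The 17 shared narrow islands had a median of 52 IP reads (range 26 to 79) and 6 control reads (0 to 12), beside 33 and 5 over all narrow islands. Of these, 9 lay inside genes, 7 in remote intergenic DNA and 1 at a gene end, that of Rel. The 17 basal islands overlapping them had widths from 200 to 2800 bp with a median of 1200 bp, 3 of them 600 bp or less, and none had the same coordinates as its KCl partner. In the basal list as a whole 55 of 711 islands (7.74%) were 600 bp or less. The 2 narrowest partners, 200 bp each, were in Atp6v0d1, a vacuolar proton pump gene, and Lsamp. In Atp6v0d1 the basal island held 19 IP and 0 control reads, beside 54 and 0 in KCl. In Lsamp it held 18 IP and 1 control reads (20.5-fold [3.23 to 852]), beside 39 and 0 in KCl. Inside Shtn1 both islands held 10 control reads, with 52 IP reads in KCl (3.27-fold [1.64 to 7.21]) and 34 in basal (3.86-fold [1.87 to 8.77]). Folds rest on the control reads given in each list and are set side by side without a comparison.

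At Rel, the KCl island of 56 IP and 7 control reads lay within a basal island of 1800 bp with 51 IP and 24 control reads (2.42-fold [1.46 to 4.10]). Inside Rbms3, which encodes an RNA-binding protein, the KCl island held 39 IP and 3 control reads (8.16-fold [2.60 to 41.3]) and the basal one 36 IP and 23 control reads (1.78-fold [1.03 to 3.14]). Near Ankrd50, 250 kb from the gene, the KCl island held 54 IP and 5 control reads (6.78-fold [2.73 to 21.7]) and the basal one 26 IP and 15 control reads (1.97-fold [1.01 to 4.0]). At these 3 places the KCl islands held 3 to 7 control reads and the basal ones, of equal or larger width, 15 to 24. The largest distance was at Slitrk1, a synaptic adhesion gene 1222 kb away, with 60 IP and 4 control reads in KCl beside 55 IP and 34 control reads in a basal island of 2800 bp. The most IP reads were at Sis, the gene of the intestinal enzyme sucrase-isomaltase, 929 kb away, with 79 IP and 3 control reads in KCl (16.54-fold [5.46 to 81.9]) beside 35 IP and 12 control reads in a basal island of 1200 bp (3.31-fold [1.68 to 7.01]). The island 711 kb from the centrin gene Cetn3 had 75 IP and 9 control reads in KCl (5.23-fold [2.61 to 11.9]) beside 42 IP and 17 control reads in a basal island of 1600 bp (2.81-fold [1.56 to 5.26]). Inside Morn5, the KCl island had 45 IP and 3 control reads and the basal one, of 800 bp, 31 IP and 5 control reads. At Slitrk1, Sis, Cetn3 and Morn5, too, the basal islands were the wider and held more control reads, though not in all 17 pairs. Higher control reads were not particular to these places. Over the whole lists the median control density was 16.4 reads per kb in basal and 9.38 in KCl islands. The intervals lay above 1 for all 17 KCl islands and for 16 of the 17 basal ones. The exception was the basal island inside Tmem108 (1.5-fold [0.942 to 2.42]), where the KCl island held 56 IP and 12 control reads (2.93-fold [1.55 to 6.01]).

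The narrow share was higher on chromosome X than on any autosome. Over the 19 autosomes it ran from 8.66% on chromosome 11 to 12.7% on chromosome 14, with 10.9% [10.4 to 11.3] over 20735 islands. On chromosome X it was 67 of 227 (29.5% [23.7 to 35.9]), and chromosome X carried 2.89% of narrow and 0.858% of wider islands (1.08% of all). The median width of KCl islands was 1000 bp on chromosome X and 1800 bp on autosomes. Median IP reads per KCl island were 43 on chromosome X and 59 on autosomes, and median control reads 7 and 16. Control density was 7.11 reads per kb of island on chromosome X and 9.38 on autosomes, and its part in the narrow share was not tested. The labels give neither the sex nor the number of the embryos, and mappability was not analysed here. Among narrow islands alone, chromosome X and autosomes had medians of 32 and 33 IP reads, 4 and 5 control reads, and folds of 4.90 and 4.31.

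**Figure D5:**
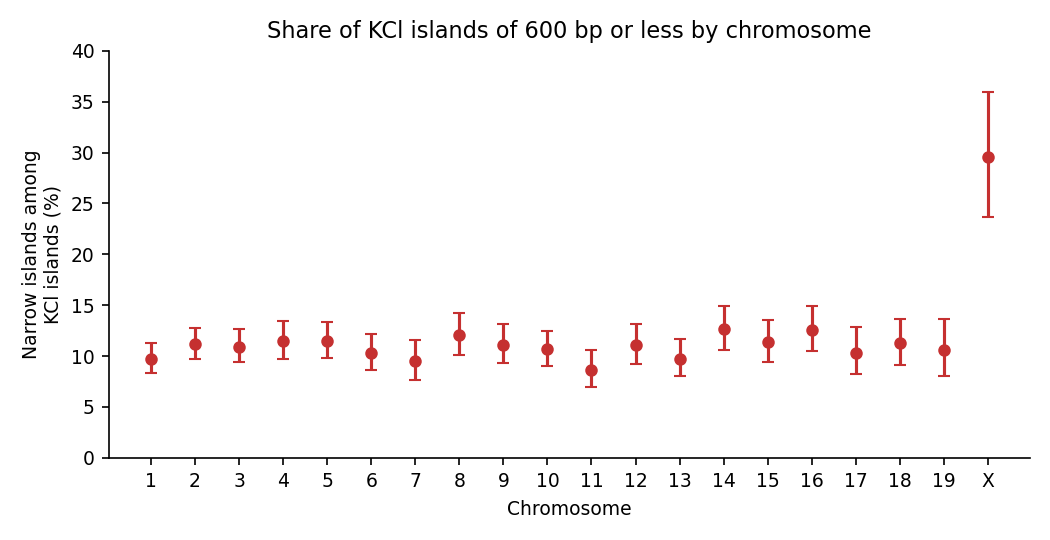
Share of KCl islands that are 600 bp or less (vertical, %) on each autosome and chromosome X (horizontal), with 95% exact intervals. Autosomes lie between 8.66% and 12.7%, and chromosome X is at 29.5%.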

How the data were processed

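BRG1/BRM islands of 1 basal and 1 KCl IP library were analysed, grouped by sample titles, each with the control reads its list gives. Per the submitters' processing notes, BWA, mm10 (GRCm38) and SICER 1.0 were used. The names of the deposited lists give windows of 200 bp, gaps of 600 bp and a threshold of 0.01 on the FDR. The authors deposited raw counts of IP and control reads per island, a p-value, an FDR and a fold, a ratio that equals IP over control reads after division by 1 constant per list (1.59 for KCl, 0.880 for basal). Which input served as control is not given in the sources used here, nor is total depth. The members, lists and alternatives were chosen with earlier results of these data known.

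Coordinates were made 1-based from a 0-based start and an inclusive end. Folds for single islands are the authors', except that 0 control reads were set to a floor of 3 in place of the 0.25 the authors assumed. For medians 0 to 2 control reads were counted as 3. The interval of a fold is the exact binomial interval of IP reads among IP and control reads, divided by the constant. Genes were 21883 protein-coding genes of RefSeq GRCm38.p6, and each island was named by the gene with the closest end. Promoter windows of 300 bases, with strand, came from RefSeq and are not complete. Exons and introns were not told apart. Overlap needed 1 bp and gave the same 17 islands with bedtools 2.31.1. Named islands were the first 8 by lower limit of the fold interval, the first 8 overlapping a basal island, the first 12 and last 3 at gene ends, up to 4 members per list, and the 8 genes with most narrow islands, ties broken by IP reads. Python 3.11.15 and scipy 1.17.1 were used, and the intervals, overlaps and classes were tested on simulated data. Intervals cover counting error only, since reads carry no molecular identifiers. Alternatives are given in the closing section. Of the first 8, the islands named by Nanog, Dhrs7 and Spin4 are given by name and distance only.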

Additional observations from a re-analysis of the deposited data

How the results depend on the processing

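No paired analysis was possible because each condition had 1 library. Of 40 alternatives, 21 left their result within the interval of its reported value or, for a count, within 1.5 times. In 32 of the 33 with a value for wider islands, narrow and wider kept their order. The exception was overlap with basal islands at 40 to 59 IP reads, chosen after seeing the data, with 1.45% for narrow and 0.716% for wider islands. The ranges of 30 to 39 and 60 to 99 IP reads were not among the alternatives. Narrow islands had the higher overlap there too, with 0.411% beside 0.353% and 6.15% beside 2.29%. A limit of 400 bp gave 3.93% narrow islands, 1.94% at gene ends, a median fold of 4.82 and 95.6% of intervals above 1, and a limit of 800 bp gave 18.3%, 3.73% at gene ends and a median fold of 4.02. The narrow share was 13.2% at an FDR of at most 1e-05 and 16.0% at a fold of at least 2. The share at gene ends was 1.77% with a window of 1 kb, 6.99% with 5 kb, 8.41% with every RefSeq gene (33.2% for wider islands) and 1.25% with coding starts only. Inside genes it was 39.1% with 5 kb. Remote islands were 47.6% at 20 kb and 31.2% at 100 kb. With 99% intervals, 82.3% lay above 1. Of 240 listed genes, 38 had a narrow island within 10 kb of the body, 1 within 2 kb of an end and 55 within 50 kb. With a median of 33 IP and 5 control reads per narrow island, counting error limits single folds.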

Other observations

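Narrow islands were also rare at promoters of long non-coding RNA genes. Of 11588 promoter windows of long non-coding RNA genes, 4 were overlapped by a narrow island (0.0345%) and 1001 by a wider one (8.64%). Among coding windows these shares were 0.0611% and 22.3%. Narrow islands made up 11.1% of KCl islands and 2.92% of their length, and the count at microRNAs was near the share of length. Of 1005 microRNA hairpins, 1 was overlapped by a narrow island and 66 by a wider one. The 1 was Mir759, 28.0 kb from Pcdh8, a protocadherin gene (chromosome 14, 79738431 to 79738528, plus strand), under an island of 32 IP and 7 control reads (2.87-fold [1.24 to 7.71]). Its mature sequence in RefSeq (GRCm38.p6) follows, with the seed, bases 2 to 8, in capitals.
mmu-miR-759: gCAGAGUGcaaacaauuuugac

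The islands of 200 bp with the highest lower limits, named after their values were seen, had 0 control reads. They lay 40.7 kb from Foxd3, a neural crest transcription factor gene (28 IP reads, 5.86-fold with 3 control reads as the floor, lower limit of the interval 4.46), inside the cadherin gene Cdh12 (26 IP reads, 5.44-fold, lower limit 4.12) and inside the kinase gene Taok1 (23 IP reads, 4.82-fold, lower limit 3.61). At the other extreme, 3 narrow islands had very high counts in both libraries. Near Axin2 there were 224 IP and 117 control reads (1.20-fold [0.957 to 1.52]), inside Zc3h7a 221 and 103 (1.35-fold [1.06 to 1.72]) and inside Peak1 140 and 67 (1.31-fold [0.974 to 1.78]).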
